A study of Arabidopsis thaliana with 4 samples.

Results

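The comparison of as2-1 with wild type covered transcript levels in the shoot apex of Arabidopsis thaliana. It was defined by the genotype labels, and it used 2 of the 4 arrays of the series, 1 per genotype. The as2-1 mutant carries a mutation in AS2, and it was set against wild type plants. The arrays of the as1-1 mutant and of an AS2 overexpressing line were read beside them. All genotypes were in the Col-0 background. Plants stood on soil for 14 days under 16 hours light and 8 hours dark, and the sampled tissue was the shoot apex with its leaf primordia. The labels did not say how many plants were pooled for an array, which as2-1 stock was used, or which promoter drove AS2 in the overexpressing line. A free-text note attached to the samples mentions embryos, at odds with the labels for growth and tissue. With 1 array per genotype no test was possible, and every value below is a fold size without an error.

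AS2, short for Asymmetric Leaves2, belongs to the LBD family of nuclear proteins, which is found in plants, and AS1 is a MYB-domain protein that acts with it. The pair keeps meristem genes of the class I KNOX family and several genes of the lower leaf side silent in young leaf primordia. Plants without AS2 form uneven, lobed leaves with leaflet-like outgrowths on the petiole. AS2 protein gathers in bodies next to the nucleolus, the site of ribosome assembly.

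The array carried 22746 probe sets, and 13513 of them were listed with 1 gene in the naming table. The other 9233 were listed with several genes or none and entered the counts without a name. Median signals on the as2-1, as1-1, AS2 overexpressing and wild type arrays were 80.7, 82.2, 75.7 and 82.5, and between 59.0% and 61.0% of probe sets had a signal of at least 43. Signals under 43 were raised to 43, so that a fold with one such side is a lower bound, written as "at least". Neither AS2 nor AS1 was among the named genes, so the mutated gene was not checked on its own array. Of the 10 shoot meristem markers only CLV3, a stem cell peptide gene, was named, and it lay under 43 on all 4 arrays. Of the 18 genes of leaf primordia and leaf polarity, 4 were named, and YAB3, a YABBY gene of the lower leaf side, had a signal of 434 in as2-1 and 429 in wild type. The single named root marker, EXPA7, lay under 43 on all 4 arrays, and no flower, pollen or seed marker was named.

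In as2-1, 262 probe sets were at least 2-fold higher than in wild type, which is 1.15% of all probe sets, and 254 were at least 2-fold lower, which is 1.12% (2.27% in either direction). Among the probe sets listed with 1 gene these numbers were 128 (0.947%) and 124 (0.918%), or 1.86% in either direction. Lower bounds made up 31 of the 262 and 35 of the 254. For the others the median fold was 2.28 among those higher and 2.39 among those lower, so most differences lay close to the 2-fold limit. At that limit, AT3G03360 was just inside at 2.01-fold higher and GH9B13, a cellulase family gene, just outside at 1.998-fold. On the lower side AT3G61770 was just inside at 2.0009-fold and AT3G20150 just outside at 1.9991-fold. The groups described first, photosynthesis, chlorophyll synthesis, ribosome assembly and HSP70 chaperones, were put together after values had been seen, so their counts describe these arrays and are not independent evidence of a direction.

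**Figure D1:**
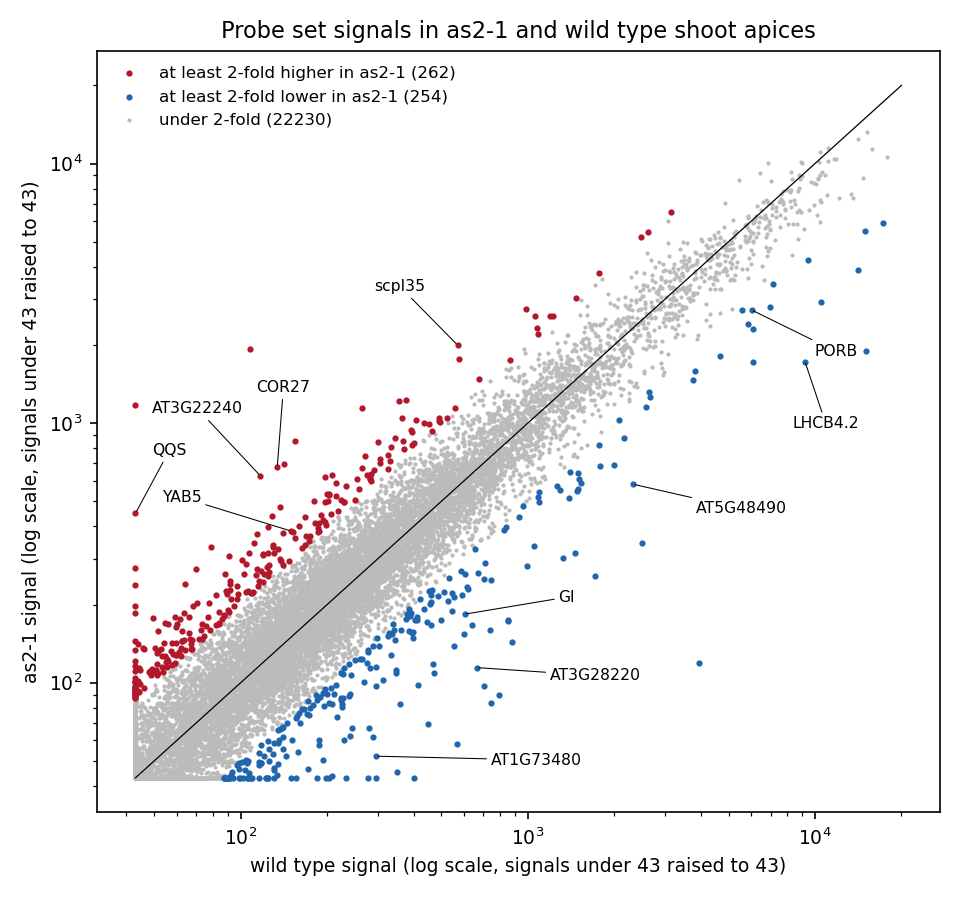
Signal of every probe set in as2-1 (vertical) against wild type (horizontal), 1 array each, on log scales with signals under 43 raised to 43. The 262 red points are at least 2-fold higher and the 254 blue points at least 2-fold lower in as2-1, the line marks equal signals, and points on the lower or left edge are lower bounds.

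Among genes for the light reactions of photosynthesis, LHCB4.2, PSBY and PSB27 were at least 2-fold lower in as2-1. LHCB4.2 encodes a minor antenna protein that passes light energy to photosystem II. It had a signal of 1726 in as2-1, 3593 in as1-1, 5853 in the AS2 overexpressing line and 9224 in wild type, and was 5.34-fold lower in as2-1 than in wild type. The as2-1 array was the lowest of the 4. PSBY, a small subunit of photosystem II, stood at 3433 in as2-1 against 7160 in wild type (2.09-fold lower). PSB27, which assists the assembly of photosystem II, stood at 2719.5 in as2-1 against 5554 in wild type (2.04-fold lower). PSAN, a subunit of photosystem I, was at 3564 in as2-1 and 6631 in wild type, a log2 difference of -0.90 that missed 2-fold. The paralog LHCB4.1 had 6937 in as2-1 and 9942 in wild type (log2 difference -0.52), and LHCB4.3 had 137 in as2-1 and 96.1 in wild type, higher by 0.51. The LHCB4 genes therefore differed from wild type by unequal amounts and not all in the same direction. The LHCB4 proteins are close relatives, and whether the probe sets also bind each other's transcripts was not tested.

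Of 52 listed genes of light harvesting, the photosystems or the plastid ATP synthase, 9 were named on the array. Genes of the plastid's own genome were counted apart and are given below. Of these 9, 3 were at least 2-fold lower, against 0.918% of all named probe sets, 0 were at least 2-fold higher and 8 lay below wild type by any amount. Of all named probe sets at 43 or more on both arrays, 50.9% lay below wild type. The median log2 difference of the 9 was -0.53 in as2-1, -0.41 in as1-1 and -0.36 in the AS2 overexpressing line. These comparisons share the wild type array, so they are not independent of each other. The list, like those for the Calvin cycle, chlorophyll synthesis, ribosome assembly, chaperones, lipid transfer proteins and cell division below, was drawn up after values had been seen. In these bulk samples, fewer cells of a type and less RNA per cell cannot be told apart.

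Of 22 listed genes of chlorophyll synthesis, 8 were named on the array. Of these 8, 3 were at least 2-fold lower, against 0.918% of all named probe sets, and 0 were at least 2-fold higher. AT1G74470, which encodes the geranylgeranyl reductase that makes the phytol tail of chlorophyll, had a signal of 2811 in as2-1 against 6995 in wild type (2.49-fold lower). PORB, the light-dependent protochlorophyllide reductase, stood at 2728 in as2-1 against 6011 in wild type (log2 difference -1.14). CHLI2, a subunit of the magnesium chelatase, stood at 399 in as2-1 against 842.5 in wild type (2.11-fold lower). These 3 genes carry out or feed the late, chlorophyll-specific steps. The methyltransferase gene CHLM, also on that branch, had a log2 difference of -0.88. Genes of the early steps shared with heme differed less, with HEMB1 at -0.12, HEMA2 at -0.14 and HEME1 at -0.25. GSA1, also an early step, was on the higher side, at 1520.2 in as2-1 against 929 in wild type (0.71). The median of the 8 named genes was -0.57 in as2-1, -0.56 in as1-1 and 0.05 in the AS2 overexpressing line.

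In carbon fixation, TRXF2, a plastid thioredoxin that switches Calvin cycle enzymes on in the light, had 335 in as2-1, 484 in as1-1, 722 in the AS2 overexpressing line and 1046 in wild type. It was 3.12-fold lower in as2-1 than in wild type, and as2-1 was the lowest of the 4 arrays. The enzymes themselves differed less. RCA (Rubisco activase) had a log2 difference of -0.71, SBPASE (sedoheptulose bisphosphatase) of -0.58 and PRK (phosphoribulokinase) of -0.28. The median of these 4 was -0.65 in as2-1, -0.82 in as1-1 and -0.33 in the AS2 overexpressing line. CCB3, named for assembly of the cytochrome b6f complex, had 155.0 in as2-1 against 327 in wild type (2.11-fold lower).

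The array also named genes of the plastid's own genome. None of its 69 probe sets reached 2-fold in either direction in as2-1, where 1.86% of all named probe sets did, a share so small that 0 of 69 lies near it, and their median log2 difference was -0.13. That of all named probe sets was 0.00, a median held there by the many at 43 on both arrays. The nuclear photosynthesis genes also lay among the probe sets with the highest signals. Over the 141 probe sets with a mean signal above 5000, the median log2 difference in as2-1 was -0.17, with 6 at least 2-fold lower and 0 at least 2-fold higher. Over the 416 with a mean between 2000 and 5000 it was -0.02. The part of signal level in the photosynthesis values was not tested. After quantile normalization their list medians were -0.41 for the light reactions, -0.56 for chlorophyll synthesis and -0.52 for the Calvin cycle. Loess within the pair gave -0.43, -0.55 and -0.57.

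Of 45 listed nucleolar and ribosome assembly genes, 21 were named on the array, and all 21 had a higher signal in as2-1 than in wild type. Of named probe sets at 43 or more on both arrays, 49% did. Of the 21, 8 were at least 2-fold higher, against 0.947% of all named probe sets, and 0 lower, with a median log2 difference of 0.54. NRPA1, the largest subunit of RNA polymerase I, which transcribes ribosomal RNA, had a signal of 237 in as2-1, 224 in as1-1, 219 in the AS2 overexpressing line and 115 in wild type (2.06-fold higher in as2-1). AT3G05060, of the NOP58 family of small nucleolar particle proteins, stood at 658 in as2-1, 605 in as1-1, 522 in the AS2 overexpressing line and 292 in wild type (2.26-fold higher in as2-1). In both, wild type was the lowest of the 4 arrays and the other 3 lay close together.

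AT3G09720, a DEAD-box helicase gene, had 98.9 in as2-1 against 44.6 in wild type (2.22-fold higher). The Brix domain genes AT3G15460 and AT1G52930 were 2.13-fold and 2.01-fold higher in as2-1. AT5G15550, a WD-repeat gene related to yeast YTM1, was 2.11-fold higher, and AT4G28450, related to yeast SOF1, was 2.04-fold higher. All of these act in maturation of ribosomal RNA or its particles, as known in yeast. The median log2 differences of the 21 genes were 0.61 in as1-1 and 0.54 in the AS2 overexpressing line, close to that in as2-1, and the 3 comparisons share the wild type array. AT5G41190, annotated as NOB1, the nuclease of the last cut of small-subunit RNA, differed from the others on the as1-1 array. It stood at 666 in as2-1, 355 in as1-1, 578 in the AS2 overexpressing line and 326 in wild type, and was 2.05-fold higher in as2-1. Some ribosomal protein genes were picked because they passed 2-fold, and the others on the array were not tallied. Of these, AT4G30800 (a small-subunit S11 gene) was at 587 in as2-1 against 214 in wild type (2.75-fold higher). AT2G32220 (a large-subunit L27 gene) was at 169 in as2-1 against 60.0 in wild type (2.82-fold higher), and AT4G10450 (a large-subunit L9 gene) was 2.02-fold higher.

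**Figure D2:**
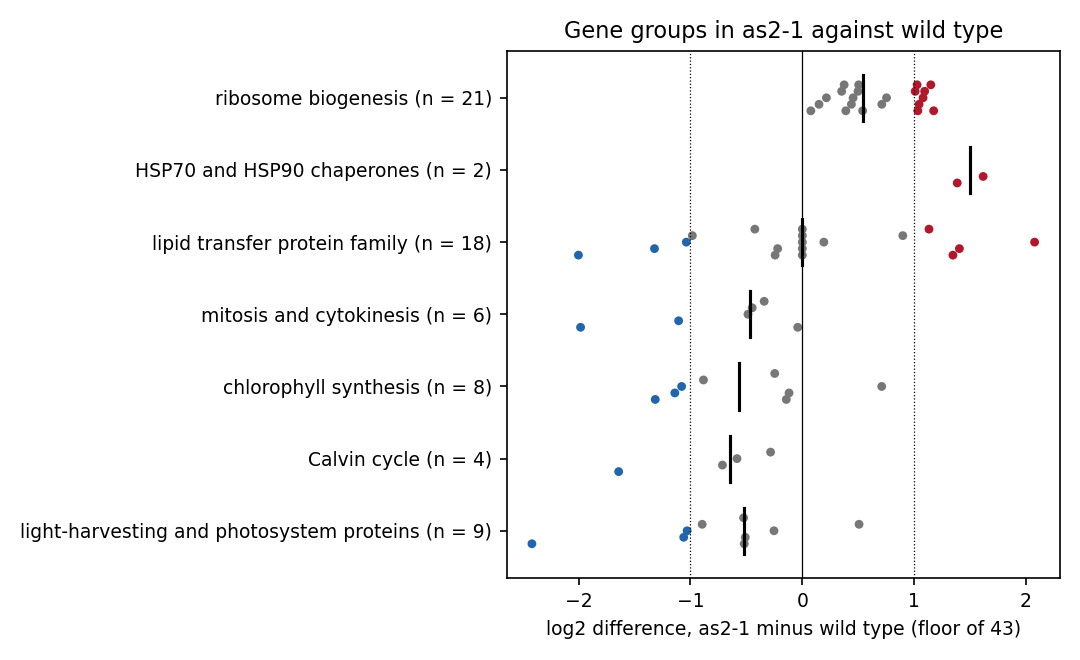
Log2 difference between as2-1 and wild type for each named member of 7 gene groups drawn up after values had been seen (points, 1 array per genotype), with the group median as a black bar and 2-fold as dotted lines. Red points are at least 2-fold higher and blue points at least 2-fold lower in as2-1. All 21 ribosome assembly genes lie to the right of 0, with a median of 0.54, and 8 of the 9 light-reaction genes lie to the left, with a median of -0.53.

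Of 17 listed HSP70 and HSP90 chaperone genes only 2 were named on the array, both for cytosolic HSP70. Both were at least 2-fold higher in as2-1, against 0.947% of all named probe sets. AT3G09440, an HSP70 family gene, had a signal of 1770.5 in as2-1, 1398 in as1-1, 479 in the AS2 overexpressing line and 577 in wild type (3.07-fold higher in as2-1). Hsp70-2 had 339 in as2-1, 337 in as1-1, 172 in the AS2 overexpressing line and 129.9 in wild type (2.61-fold higher in as2-1). For both genes the 2 mutant arrays lay above the other 2. HSP70 genes are close in sequence, and shared binding of their probe sets was not tested. AT2G19310, of the small heat shock protein family, stood at 136 in as2-1 against 45.8 in wild type (2.96-fold higher). The 4 genes named as chaperones in the annotation, which are 3 subunits of the plastid chaperonin (Cpn60beta2, Cpn60beta3 and Cpn60beta4) and the copper chaperone CCS, stayed under 2-fold, with log2 differences between -0.47 and 0.68.

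Of 20 listed circadian clock genes only 3 were named on the array, COR27, AT4G33980 and GI. Of these, 2 were at least 2-fold higher and 1 lower, against 0.947% and 0.918% of all named probe sets. COR27, a cold-regulated gene that feeds back on the circadian clock, reached 676 in as2-1, 953 in as1-1, 925 in the AS2 overexpressing line and 134 in wild type (5.04-fold higher in as2-1). AT4G33980, its close relative, stood at 159 in as2-1, 276 in as1-1, 264 in the AS2 overexpressing line and 51.7 in wild type (3.07-fold higher in as2-1). AT1G07050, a CCT motif gene that was not on the list, stood at 399 in as2-1 and 125 in wild type (3.19-fold higher). For COR27, AT4G33980 and AT1G07050 wild type was the lowest of the 4 arrays. GI (GIGANTEA), an evening gene that links the clock to flowering, went the other way, at 184 in as2-1, 616 in as1-1, 642 in the AS2 overexpressing line and 602 in wild type (3.28-fold lower in as2-1). For GI the as2-1 array alone stood apart. The hour of harvest was not given in the labels, and its part in these values was not tested. None of the 3 cold and dehydration genes reached 2-fold in as2-1. COR15A had 309.5 in as2-1 against 394 in wild type, COR15B 784 against 652 and COR47 2029 against 1264.5.

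Among leaf polarity genes, YAB5, also of the YABBY family, was 2.56-fold higher in as2-1. Its signals were 384 in as2-1, 351 in as1-1, 4.9 in the AS2 overexpressing line and 149.7 in wild type. The as2-1 array was thus the highest of the 4, and the AS2 overexpressing line the lowest, far under 43. AGO7, which helps make the small RNAs that restrain genes of the lower leaf side, had 82.0 in as2-1, 55.2 in as1-1, 45.2 in the AS2 overexpressing line and 24.9 in wild type, at least 1.91-fold higher in as2-1. PHV, which specifies the upper leaf side, had a log2 difference of -0.13, and YAB3 one of 0.02. The homeodomain gene HAT3.1 was 2.93-fold higher in as2-1, at 135 against 46.2 in wild type. AGL24, a flowering promoter of the MADS-box type, had 114 in as2-1 against 153 in wild type, under 2-fold, and SMZ, an AP2-type repressor of flowering, was 2.18-fold higher, at 165 in as2-1 against 75.6 in wild type. The type-A cytokinin response regulators ARR15 and RR16 had log2 differences of 0.18 and 0.27.

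None of the 12 named auxin response probe sets of the IAA and GH3 families reached 2-fold in as2-1. Among all named probe sets 1.86% did, and 5 of the 12 lay under 43 on both arrays. Their log2 differences ran from -0.32 (IAA29, which lay under 43 in as2-1) to 0.88 (GH3.17). AT3G53250, of the SAUR family but not so named in the table, had 198 in as2-1, 298 in as1-1, 67.1 in the AS2 overexpressing line and 10 in wild type. It was at least 4.60-fold higher in as2-1, and wild type was the lowest of the 4.

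Among genes of cell division, 2 kinesin genes were at least 2-fold lower. Annotation names found 2 kinesins, KINESIN-12B and 1 that stayed under 2-fold at a log2 difference of -0.20. The kinesin gene AT2G36200 had a signal of 118 in as2-1, 253 in as1-1, 331 in the AS2 overexpressing line and 467 in wild type (3.95-fold lower in as2-1). KINESIN-12B, a motor of the phragmoplast, the structure that builds the new wall between daughter cells, had 181.0 in as2-1 against 389.6 in wild type (2.15-fold lower). All 6 named genes of a list of 20 for mitosis and cytokinesis lay below wild type by any amount, as did 50.9% of named probe sets at 43 or more on both arrays, with a median log2 difference of -0.47. Of the 6, 2 were at least 2-fold lower, against 0.918% of all named probe sets. The aurora kinase genes AUR1 and AUR2 stood at -0.45 and -0.49, AT2G28620 at -0.34 and PRL, a subunit of the replication licensing complex, at -0.04. The same list had a median of -0.54 in as1-1 and -0.29 in the AS2 overexpressing line, against the same wild type array.

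A few cell wall genes were at least 2-fold higher. EXPA20, an expansin that loosens the wall, had 131 in as2-1, 155 in as1-1, 49.8 in the AS2 overexpressing line and 50.9 in wild type (2.57-fold higher in as2-1). EXLA2, an expansin-like gene, had 87.6 in as2-1 against 41.1 in wild type, at least 2.04-fold higher. GH9B8, a cellulase family gene, had 178 in as2-1, 179 in as1-1, 61.9 in the AS2 overexpressing line and 66.0 in wild type (2.70-fold higher in as2-1). For EXPA20 and GH9B8 both mutant arrays lay above the other 2. Of the 19 named expansin probe sets 2 were at least 2-fold higher, 0 were lower and 8 lay under 43 on both arrays, where 0.947% of all named probe sets were higher and 0.918% lower. Of the 15 named glycosyl hydrolases 1 was higher, 0 were lower and 10 lay under 43 on both. None of the 10 xyloglucan endotransglucosylases and 4 pectin enzymes reached 2-fold, but 7 and 1 of them lay under 43 on both arrays and have no fold. A peroxidase family gene, AT5G64110, had 375 in as2-1, 292 in as1-1, 103.5 in the AS2 overexpressing line and 114 in wild type (3.29-fold higher in as2-1).

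A few protease and redox genes differed, in both directions. scpl35, a serine carboxypeptidase-like gene, had 1994 in as2-1, 1687 in as1-1, 1509 in the AS2 overexpressing line and 569.9 in wild type (3.50-fold higher in as2-1), and scpl46 was 2.31-fold higher. They were the 2 of 33 named carboxypeptidase and subtilase probe sets past 2-fold, where 1.86% of all named probe sets were, and 17 of the 33 lay under 43 on both arrays. AT5G59130, a subtilase family gene that the annotation does not so name, was 2.92-fold lower, at 54.1 in as2-1 against 158 in wild type. Among 10 named thioredoxins and glutaredoxins, GRXC1 was 2.02-fold higher and TRXF2 lower, as given above, where 1.86% of all named probe sets were past 2-fold. The other 8 stayed under 2-fold, and the median log2 difference of the 10 was 0.24. The glutaredoxin family gene AT1G06830, not among those 10, had 140.3 in as2-1 against 43.8 in wild type (3.20-fold higher). MSRB6, whose product repairs oxidised methionine, was lower by 2.65-fold, at 90.5 in as2-1 against 239.9 in wild type.

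In secondary metabolism, DFR, which makes the precursors of anthocyanin pigments, had 134 in as2-1, 85.3 in as1-1, 22.7 in the AS2 overexpressing line and 41.6 in wild type. It was at least 3.11-fold higher in as2-1, which was the highest of the 4 arrays. UF3GT, a glycosyltransferase of the same pathway, had 71.3 in as2-1 and lay under 43 on the other 3 arrays, at least 1.66-fold higher than in wild type. AT2G31790, the UGT74C1 glucosyltransferase gene of glucosinolate synthesis, had 823.5 in as2-1, 564 in as1-1, 254 in the AS2 overexpressing line and 394 in wild type (2.09-fold higher in as2-1). BCAT4, an aminotransferase of the same pathway, had 2845 in as2-1 against 2175 in wild type, 1.31-fold higher. UGT88A1, another glycosyltransferase gene, was 2.71-fold lower. Of the 43 named UDP-glycosyltransferase probe sets it was the only one past 2-fold, against 1.86% of all named probe sets. Of these family members, 23 had signals under 43 on both arrays and have no fold. The cytochrome P450 gene CYP71B26 was 2.55-fold lower, and CYP71B35 at least 2.04-fold lower. Of 24 named P450 probe sets, 2 were at least 2-fold lower and 0 higher, against 0.918% and 0.947% of all named probe sets. Of the 24, 16 lay under 43 on both arrays and have no fold. By any amount, 4 lay above wild type and 4 below. THI2.2, a thionin gene, was 2.81-fold lower, at 251 in as2-1 against 704 in wild type.

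Genes of the lipid transfer protein family were split. AT1G62790 had a signal of 332.5 in as2-1, 235 in as1-1, 155 in the AS2 overexpressing line and 78.8 in wild type (4.22-fold higher in as2-1). AT5G48490 had 581 in as2-1, 626 in as1-1, 1197 in the AS2 overexpressing line and 2328 in wild type (4.01-fold lower in as2-1). Of 18 named members, 4 were at least 2-fold higher, 3 at least 2-fold lower and 5 under 43 on both arrays, against 0.947% higher and 0.918% lower among all named probe sets. The list was chosen after values were seen. The others past 2-fold were AT2G44300 (2.65-fold higher), AT5G59330 (2.54-fold higher), AT1G62500 (2.19-fold higher), AT1G62510 (at least 2.50-fold lower) and AT4G33550 (2.05-fold lower). This is a large family of small secreted proteins with different binding partners, and no common direction held for it.

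The remaining genes with the largest differences had varied roles. AT3G28220, of the TRAF-like family, had 114 in as2-1, 301 in as1-1, 360.1 in the AS2 overexpressing line and 664 in wild type (5.81-fold lower in as2-1). AT1G73480, an alpha/beta hydrolase family gene, was 5.68-fold lower, at 52.1 in as2-1 against 296 in wild type. Both were lowest in as2-1. AT3G49160, a pyruvate kinase relative, had 43.7 in as2-1, just above the limit of 43, against 208 in wild type (4.75-fold lower). AT2G29670 was 4.87-fold lower, AT5G35970 4.34-fold lower and AT3G01060 4.34-fold lower. AT5G56100 was 3.84-fold lower, AT2G32150 3.10-fold lower and AT5G57345 3.10-fold lower. On the higher side, AT2G41090, a calmodulin-like gene, stood at 631 in as2-1, 331 in as1-1, 217 in the AS2 overexpressing line and 208 in wild type (3.03-fold higher in as2-1), and AT2G29660, of the C2H2 zinc finger class, was 2.96-fold higher.

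A subset differed at least 2-fold in as2-1 and by less than 1.3-fold in as1-1, each against the same wild type array. It held 29 probe sets higher in as2-1 (0.127% of all) and 20 lower (0.0879%), of which 14 and 11 were listed with 1 gene (0.104% and 0.0814%). Values of both contrasts chose this subset, so its differences are given as a description. At the as1-1 limit, AT1G06000 was just inside at 1.297-fold and AT3G10190 just outside at 1.312-fold. The as1-1 limit does not by itself set the mutants far apart. Directly between the mutant arrays, 6 of the 14 were at least 2-fold higher in as2-1 than in as1-1, and 6 of the 11 were at least 2-fold lower. Among all 13513 probe sets listed with 1 gene, 21 (0.155%) were at least 2-fold higher in as2-1 than in as1-1. At least 2-fold lower were 33 (0.244%). The subset was chosen on both arrays, so these shares are no sign of a difference.

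QQS, an orphan gene known to act on starch content, showed the largest difference among the higher ones. It had a signal of 449 in as2-1, 24.9 in as1-1, 29.5 in the AS2 overexpressing line and 18.6 in wild type, at least 10.4-fold higher in as2-1. AT1G19960 had 237 in as2-1, 36.6 in as1-1, 17.7 in the AS2 overexpressing line and 8.8 in wild type, at least 5.51-fold higher. These 2 genes lay under 43 on all arrays but as2-1, and were singled out after their values were seen.

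Among those measured on both sides, AT3G63340 had 136 in as2-1 against 50.2 in wild type (2.71-fold higher), and 59.7 in as1-1. GTR1, a transporter that moves glucosinolates to other organs, had 279.6 in as2-1, 139 in as1-1, 114 in the AS2 overexpressing line and 124 in wild type (2.26-fold higher in as2-1). GTR1 was not on the list of 19 glucosinolate genes. Of the 2 genes named from that list, UGT74C1 was past 2-fold in as2-1 and BCAT4 was not. ECS1 had 2332 in as2-1, 1205 in as1-1, 811.5 in the AS2 overexpressing line and 1079 in wild type (2.16-fold higher in as2-1). AT4G30330, a gene of a splicing particle's Sm E protein, had 614 in as2-1, 329.8 in as1-1, 377 in the AS2 overexpressing line and 283 in wild type (2.17-fold higher in as2-1). AT5G59330 (2.54-fold), AT1G29240 (2.24-fold), AT3G04950 (2.23-fold), AT4G36640 (2.23-fold), AT3G52030 (2.05-fold) and AT5G41190 (2.05-fold) were also higher in as2-1. AT1G29240 was 2.06-fold above wild type in the AS2 overexpressing line too, the only 1 of the 14 past 2-fold there in the same direction. AT2G17300 lay at 42.9 in wild type, just under 43, and was higher in as2-1 by a log2 difference of at least 1.07. AT1G06000, which encodes a rhamnosyltransferase of flavonols, was 2.03-fold higher, at 379 in as2-1 against 186 in wild type.

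On the lower side of this subset GI came first. AT2G30600, a BTB domain gene, was measured by 2 probe sets. One had 229.6 in as2-1, 668 in as1-1, 478 in the AS2 overexpressing line and 618 in wild type (2.69-fold lower in as2-1). The other had 157.5 in as2-1, 413 in as1-1, 390.5 in the AS2 overexpressing line and 385.5 in wild type (2.45-fold lower). On both probe sets as2-1 was the lowest array. AT5G60840 had 44 in as2-1, just above the limit of 43, against 134 in wild type (3.04-fold lower).

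CIL, a relative of the chloroplast import gene CIA2, had 75.4 in as2-1, 149 in as1-1, 273 in the AS2 overexpressing line and 170.2 in wild type (2.26-fold lower in as2-1). It was lowest in as2-1 and highest in the AS2 overexpressing line. AT3G09860 had 58.7 in as2-1, 139 in as1-1, 47.0 in the AS2 overexpressing line and 135 in wild type (log2 difference -1.20). AT5G03380, of a heavy metal-binding family, had 82.1 in as2-1, 151 in as1-1, 76.8 in the AS2 overexpressing line and 179 in wild type (2.18-fold lower in as2-1). For the last pair loss and overexpression of AS2 both lay below wild type and as1-1. AT3G24070 (2.39-fold), AT2G42040 (2.13-fold), AT1G67590 (log2 difference -1.07) and AT3G29760 (2.01-fold) were also lower in as2-1.

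**Figure D3:**
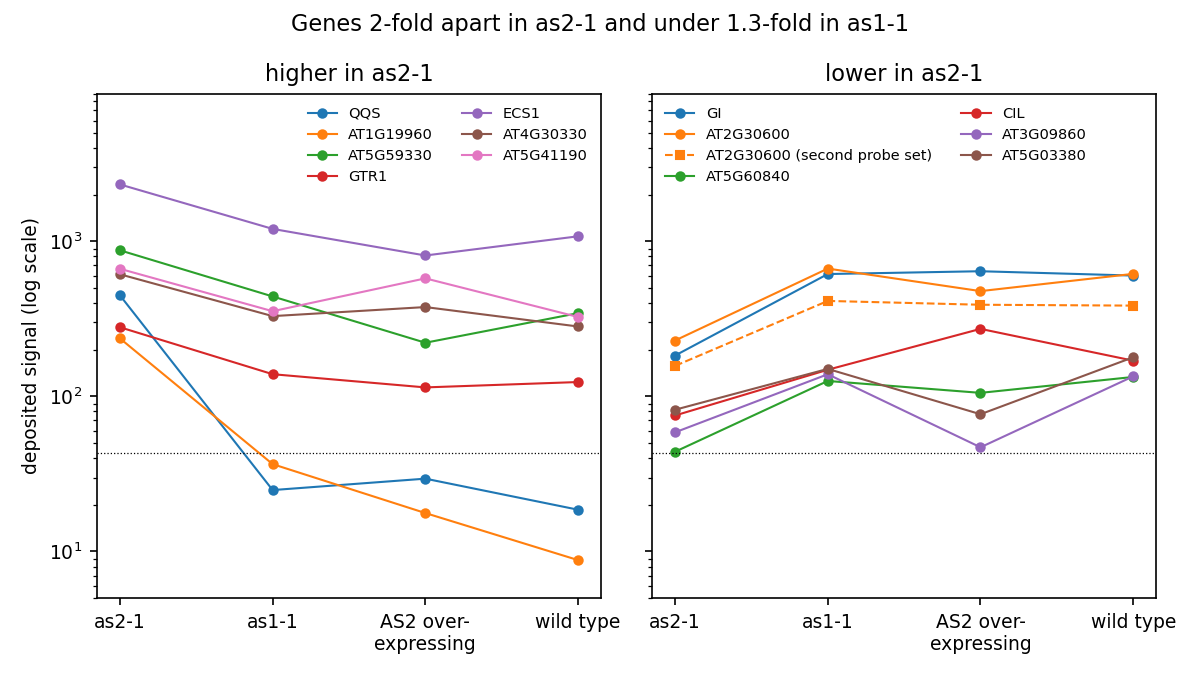
Deposited signals (log scale) of 13 genes that were at least 2-fold apart from wild type in as2-1 and under 1.3-fold in as1-1, 1 array per genotype, with the limit of 43 dotted. QQS stands at 449 in as2-1 and at 24.9, 29.5 and 18.6 on the other arrays, and the 2 probe sets of AT2G30600 (solid and dashed) are both lowest in as2-1.

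A few genes were higher in as2-1 and lower in as1-1 than in wild type, and were picked after their values were seen. AT3G22240 had a signal of 626 in as2-1, 81.8 in as1-1, 76.4 in the AS2 overexpressing line and 117 in wild type. It was 5.35-fold higher in as2-1, the largest measured difference among named genes on that side. AT1G04770, a tetratricopeptide gene related to those induced by sulfur shortage, had 241 in as2-1, 34 in as1-1, 95.1 in the AS2 overexpressing line and 64.2 in wild type (3.75-fold higher in as2-1). AT5G15780 had 333 in as2-1, 75.8 in as1-1, 44.9 in the AS2 overexpressing line and 129 in wild type (2.58-fold higher in as2-1). For each of these 3 genes the as2-1 array was the only one above wild type by more than 1.5-fold. AT1G59740, from the family of nitrate and peptide transporters, was nearer wild type in as2-1 than in as1-1, at 89.9 in as2-1, 45.5 in as1-1, 287 in the AS2 overexpressing line and 184 in wild type (2.04-fold lower in as2-1).

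**Figure D4:**
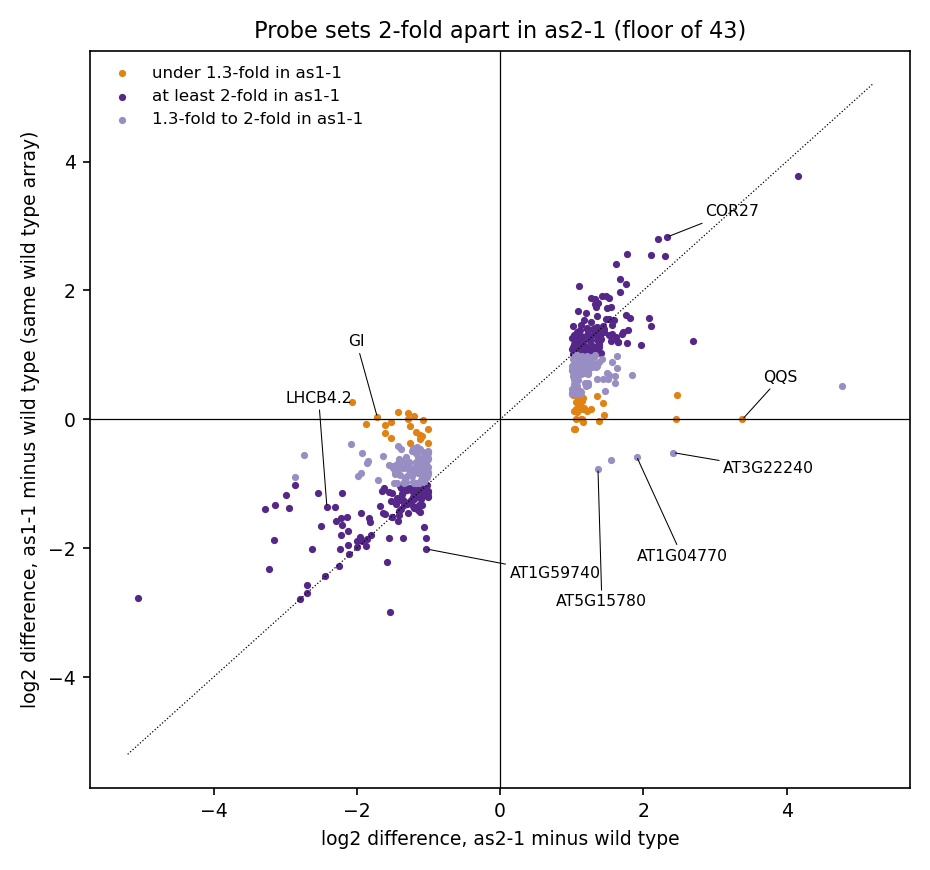
Log2 difference from wild type in as2-1 (horizontal) and in as1-1 (vertical) for the 516 probe sets at least 2-fold apart in as2-1, with equal differences dotted. Both axes use the same wild type array, so they are not independent. The 49 orange points are under 1.3-fold in as1-1, among them QQS and GI, and AT3G22240, AT1G04770 and AT5G15780 lie below 0 on the vertical axis.

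The genes past 2-fold were spread over the genome. Their share of named probe sets ran from 1.68% on chromosome 2 to 2.08% on chromosome 3. Of 5845 pairs of neighbouring protein-coding genes with both named, 7 pairs had both past 2-fold, 3 in the same direction and 4 in opposite directions. Single named probe sets were past 2-fold in 1.86% of cases, and whether 7 pairs exceed what that share gives was not tested. For a gene with several probe sets the one with the largest difference was used. The pair AT2G29660 and AT2G29670 showed the widest split, with 261 in as2-1 against 88.3 in wild type for the first and 174 in as2-1 against 849.5 in wild type for its neighbour. AT5G48490 and AT5G48500 were likewise lower and higher, and AT1G64710 and AT1G64720 (CP5) higher and lower, as were the lipid transfer family genes AT1G62500 and AT1G62510. In the same direction were AT4G33980 with AT4G33985, both higher, and PORB with AT4G27450 and AT1G73470 with AT1G73480, both lower. Of the 3 genes past 2-fold that had several probe sets, AT2G30600 was past 2-fold on both. AT4G00520 was at 2.07-fold and 1.25-fold higher, and AT2G31110 had a log2 difference of -1.07 on one probe set while the other lay under 43 in as2-1.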

How the data were processed

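The authors deposited a linear signal intensity per probe set for 4 Affymetrix arrays, 1 per genotype. Per the labels' protocols, RNeasy columns gave the total RNA, which was turned into biotinylated cRNA. Software and scaling are not given in the sources used here. After trimming 2% of probe sets at each end, array means ran from 197.8 to 198.1, and no depth or detection call was used. Signals under 43 were raised to 43, log2 differences were taken, and 2-fold was counted as a difference. No scaling was added. Probe sets were named through the platform annotation, which can be old, updated by the RefSeq table of assembly TAIR10.1, where 13484 matched a locus. Roles of genes known only by locus are general background and not from these tables. Position was used for gene order only.

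The genes named are the 15 with the largest measured fold in each direction, the 10 largest per direction among those under 1.3-fold in as1-1, and members past 2-fold of 12 gene lists and 38 families found by annotation names, of which 9 and 25 had a named probe set. Other names, and 7 further lists, were chosen after values were seen. Members and lists were chosen with earlier results of these data known. Python 3.11.15, pandas 2.3.3 and statsmodels 0.14.6 were used. The calling steps were also run on simulated data, which checks only that they work as written. With 1 array per genotype the noise of these arrays is not known. That run therefore cannot tell how many of the calls made here are real, least of all those close to the 2-fold limit or at low signals. Alternatives were other floors, scalings, limits and the AS2 overexpressing array in place of wild type.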

Additional observations from a re-analysis of the deposited data

How the results depend on the processing

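The counts depended most on how low signals were treated. Against 262 higher and 254 lower probe sets, a floor of 20 gave 390 and 512, a floor of 100 gave 151 and 162, and no floor gave 1651 and 3323. A 3-fold limit left 35 and 58, and probe sets listed with 1 gene were 128 and 124. Centring on the median of all probe sets gave 292 and 231 and on that of the brighter probe sets, above the median signal, 237 and 285, so which direction was more frequent turned with the centring. Quantile normalization gave 272 and 261 and loess 270 and 261. With the AS2 overexpressing array in place of wild type the counts were 332 and 150, a share of 68.9% higher against 50.8%. The subset under 1.3-fold in as1-1, with 29 higher and 20 lower, moved to 41 and 44 with a floor of 20, to 21 and 8 with a floor of 100, to 186 and 443 with no floor, to 53 and 39 with a limit of 1.5-fold, and to 14 and 11 with 1 gene listed. Of the 252 named probe sets past 2-fold, 120 fell under it with a floor of 100, and between 9 and 16 under each scaling. No named probe set past 2-fold changed sign under these floors and scalings. Medians of gene lists under these settings were added after seeing the data. No paired analysis was possible because each genotype had 1 array, so no replicate could be left out, and the number of arrays limits every value.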

Other observations

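Among families searched by name, no 2-fold difference in as2-1 was found for 12 glutathione S-transferases, 7 WRKY regulators and 5 histones found by words in the annotation, which can miss members. Of these, 6, 2 and 2 lay under 43 on both arrays, and have no fold. Among all named probe sets 1.86% were past 2-fold in either direction. At so small a share, families of this size can easily have no member past 2-fold. The lack of one therefore says nothing about these families.

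Some single genes with known roles were past 2-fold and belong to no group above. RALFL33, a gene for a RALF signalling peptide, stood at 628 in as2-1 against 274.5 in wild type. UNG, which removes uracil from DNA, had 101 in as2-1 and 35.6 in wild type, at least 2.35-fold higher. ASPGB1, an asparaginase gene, lay under 43 in as2-1 (35) against 109 in wild type, at least 2.53-fold lower, and ALN, the allantoinase of purine breakdown, stood at 91.1 in as2-1 against 194 in wild type. LPR2, linked to root growth under low phosphate, had 59.9 in as2-1 against 135 in wild type.

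The largest differences of all were on probe sets without a listed gene. One probe set had a signal of 1175 in as2-1, 61.7 in as1-1, 79.1 in the AS2 overexpressing line and 17.2 in wild type, at least 27.3-fold higher in as2-1. Another had 1937 in as2-1, 1474 in as1-1, 1068 in the AS2 overexpressing line and 108 in wild type. On the lower side, one probe set had 119 in as2-1, 579.6 in as1-1, 1109.8 in the AS2 overexpressing line and 3956.5 in wild type (33.2-fold lower in as2-1), and another had 58.2 in as2-1 against 568 in wild type.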
